A study of Mus musculus with 14 samples.

Results

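The genes of oxidative phosphorylation were followed in 14 mouse liver RNA-seq libraries. A diet rich in fat and sucrose (HFHS) was given in 7 and one low in both (LFLS) in the other 7. Members were chosen by name: nuclear genes beginning Nduf (a, b, c, s or v), Uqcr, Cox4 to Cox8, Atp5 or Sdh (a to d), and the protein-coding genes of the mitochondrial chromosome. The rule found 105 of the 37681 genes in the table, 92 of them nuclear and 13 mitochondrial, and used no measured value. No treatment other than diet is named, and the labels give no strain, sex, age or feeding period. Replicates are separate labelled samples, and p-values measure the spread between these samples. Each library title begins with a number, 1 for HFHS 1 to 4 and LFLS 1 to 4 and 2 for HFHS 5 to 7 and LFLS 5 to 7. What that number means is not stated, and it is called the title number below.

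Oxidative phosphorylation runs on 5 complexes of the inner mitochondrial membrane. Complex I takes electrons from NADH, complex II from succinate, complex III passes them to cytochrome c, complex IV passes them to oxygen, and complex V makes ATP from the proton gradient that complexes I, III and IV build. Complexes I, III, IV and V join subunits made from nuclear genes with subunits made from the mitochondrial chromosome, while all subunits of complex II are nuclear. Mitochondrial genes are transcribed as long multi-gene RNAs that are cut apart, and the liver uses the pathway for fat oxidation, glucose synthesis and urea synthesis.

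Libraries held between 18219257 and 52826695 counts. Levels are counts per 1000000 of TMM-scaled library size (CPM), and in whole liver, fewer cells of a type and less RNA per cell cannot be told apart. The 6 hepatocyte markers summed to between 66488 and 109130 CPM in HFHS libraries and between 84302 and 119818 CPM in LFLS libraries, with 1 positive and 5 negative log2 fold changes and a median of -0.43. The summed level of 12 exocrine pancreas markers ranged from 16.2 to 449.9 CPM in HFHS libraries and from 18.7 to 1678 in LFLS libraries, with the highest value in LFLS 2. The 6 erythroid markers summed to between 369.1 and 480.3 CPM in HFHS libraries and between 320.5 and 743.2 in LFLS libraries. Ucp1, the brown fat uncoupler, and the 8 muscle markers were near the lowest value of the table, the muscle markers together reaching at most 0.82 CPM in HFHS libraries and 4.44 in LFLS libraries. Of the pancreas, erythroid, macrophage and hepatocyte markers edgeR called 0 between the diets, where it called 2.81% of all genes tested, DESeq2 called 3 hepatocyte markers and 1 macrophage marker (Marco), and voom called 3 hepatocyte markers, all lower in HFHS. The part of other cell types in the values below was not tested. Of the 3 tested brown fat markers edgeR called 1, the lipid droplet gene Cidea, at a log2 fold change of 3.11 ± 0.74 (adjusted p = 0.0354). That call was lost in 9 of 14 fits without 1 library (without HFHS 1, 2, 5, 6 or 7 or LFLS 2, 4, 5 or 7; adjusted p up to 0.0792) and in voom (adjusted p = 0.108), and the other brown fat markers, Elovl3 and Adipoq, had -0.99 and -0.49.

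What a count of these genes measures depends on near-identical copies in the nuclear genome, so the sequences are shown first. In GRCm38, mt-Atp6, the proton channel subunit of complex V, starts at chrM:7927-7976 on the plus strand, and the annotated pseudogene Gm10925 starts at chr1:24614602-24614651 on the minus strand. The coding starts are given 5′ to 3′, in lower case, and no base differed between them.
mt-Atp6: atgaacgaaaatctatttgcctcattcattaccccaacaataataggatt
Gm10925: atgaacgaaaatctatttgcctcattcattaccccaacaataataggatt
Over the 678 aligned bases of the 681-base gene the pair had 0 mismatches, so a single read of 50 bases from either is the same string of letters. The first 43 bases of mt-Atp6, chrM:7927-7969, are also the end of mt-Atp8, the other mitochondrial subunit of complex V.

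The catalytic subunit of complex IV, mt-Co1, has a copy with differences, Gm13340 on chromosome 2, which aligned over 1545 bases with 37 mismatches, an identity of 97.6%. Bases 51 to 100 of each transcript are printed below with the differing bases in capitals, chrM:5378-5427 on the plus strand and chr2:22589548-22589597 on the minus strand.
mt-Co1: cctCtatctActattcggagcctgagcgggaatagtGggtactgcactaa
Gm13340: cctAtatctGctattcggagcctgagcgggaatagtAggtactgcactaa
Counted from 1 at the first printed base, the 3 differences are C4A, A10G and G37A, the base of mt-Co1 first. Nuclear members have such copies too. Cox7c, a small subunit of complex IV on chromosome 13, and the pseudogene Gm12338 on chromosome 11, at chr11:75599905-75599954 on the minus strand, were identical over the 192 aligned bases, which include the coding start printed here.
Cox7c: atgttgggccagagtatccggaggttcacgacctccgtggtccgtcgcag
Gm12338: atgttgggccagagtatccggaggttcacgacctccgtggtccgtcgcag

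The copies held many of the counts. Summed over the 14 libraries, mt-Atp6 had 2380 counts and Gm10925 had 3532464, which is 99.9% of the sum. The complex I subunit mt-Nd4l had 991 counts against 637556 in its identical copy Gm10222, 99.8% of the sum. For mt-Co1, 1892580 counts stood in Gm13340 and 4055624 in the gene, so that the copy held 31.8%. Of the 92 nuclear members, 21 had a counted pseudogene with at least 95% identity over at least 100 bases. In 5 of them the pseudogenes held more than 50% of the sum. These were Cox7c (81.0%), the complex I subunits Ndufs5 (77.8%), Ndufb4 (71.8%) and Ndufs3 (52.95%), and Cox7a2l (61.3%), which links complexes III and IV. The labels do not say how counting divided reads between a gene and its copy, so the levels of these members are uncertain.

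**Figure D1:**
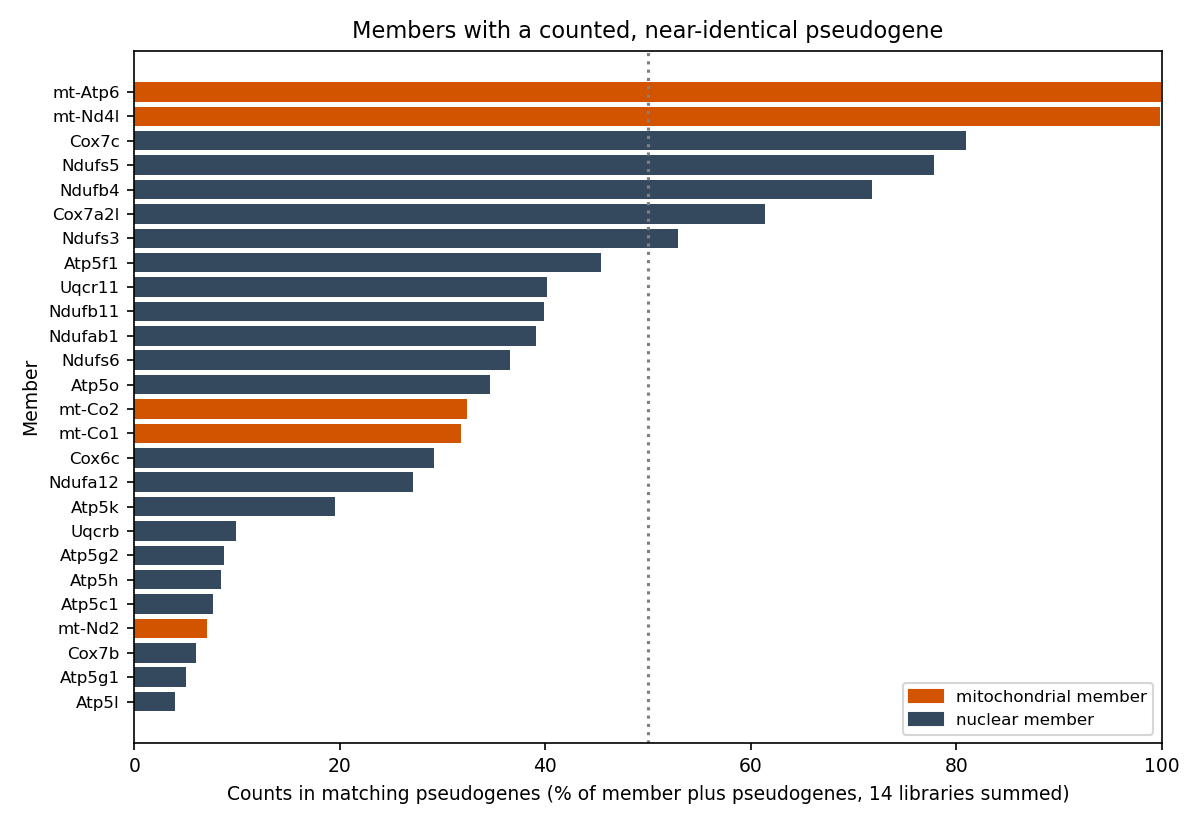
Bars give the share, in percent, of the summed counts of a member and its matching pseudogenes that was counted in the pseudogenes, over all 14 libraries, for the 26 members with a counted copy (orange, 5 mitochondrial; dark, 21 nuclear). The dotted line marks 50%, which 2 mitochondrial and 5 nuclear members exceeded.

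The 13 mitochondrial genes fell into a high and a low set that follow their order on the chromosome. The 6 genes lying next to each other from mt-Co2 through mt-Atp8, mt-Atp6, mt-Co3 and mt-Nd3 to mt-Nd4l ranged from 0.052 to 27.0 CPM over all libraries. The other 7, mt-Nd1, mt-Nd2 and mt-Co1 before them and mt-Nd4, mt-Nd5, mt-Nd6 and mt-Cytb after them, ranged from 288.4 to 11751 CPM. Per kilobase of transcript, diet means of the low set ran from 2.38 to 42.3 CPM and those of the high set from 1956 to 9028 CPM. In the low set, 5 of the 6 genes have an annotated copy on chromosome 1 that aligned over more than 95% of their length, against 0 of the 7 in the high set. Of the high set, mt-Nd4 and mt-Co1 have chromosome 1 copies that aligned over 63.6% and 31.3% of their length. For mt-Atp8 no such copy met the identity and length minimum. The chromosome 1 copies of mt-Co2, mt-Co3 and mt-Nd3 could not be matched to a counted gene by Ensembl ID or symbol, so no counts of theirs could be set beside these genes. Because mt-Nd6 is encoded on the opposite strand and the labels do not say that strand was kept, reads from the other strand across it cannot be told apart.

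**Figure D2:**
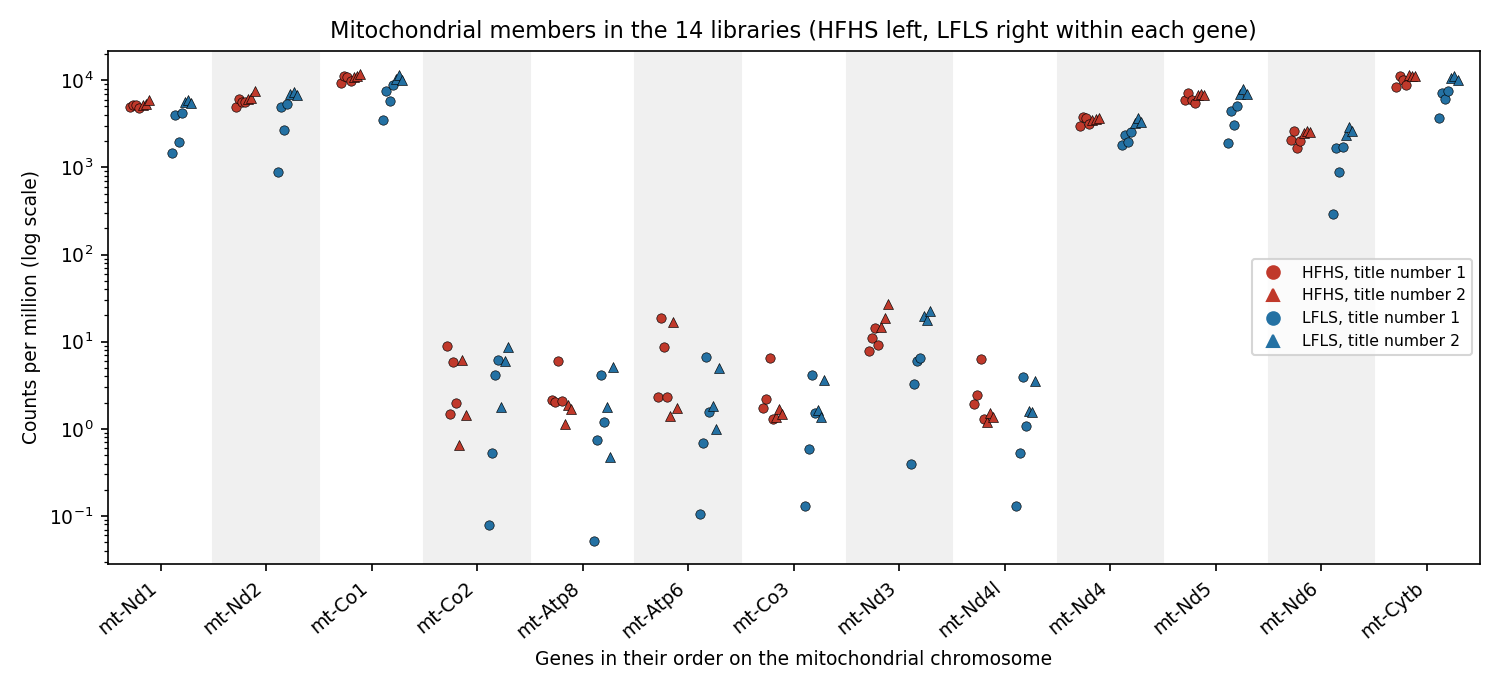
Each point is 1 library, plotted as CPM on a log axis for the 13 mitochondrial members in chromosome order, HFHS in red on the left and LFLS in blue on the right within each gene, with circles for title number 1 and triangles for title number 2. The 6 genes from mt-Co2 to mt-Nd4l lie between 0.052 and 27.0 CPM, the other 7 lie between 288.4 and 11751 CPM, and LFLS 1 is the lowest library for all 13.

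Mitochondrial members were not called between the diets. With edgeR's quasi-likelihood test over 17223 genes, 0 of 13 passed an adjusted p of 0.05, where 2.81% of all genes tested were called, 1.37% higher and 1.44% lower in HFHS livers. The median log2 fold change of HFHS over LFLS was 0.34 over the 13, against -0.0087 over all genes tested, and 12 of the 13 values were positive. The 13 pool the high and the low set. The 7 genes of the high set had values from 0.27 to 0.39, with SEs from 0.16 to 0.35. The 6 of the low set, at no more than 27.0 CPM, had values from -0.029 to 1.59, with SEs from 0.54 to 0.74. Precision was low: for 0 of the 13 did the 95% interval lie within 1.5-fold either way, which held for 54.9% of all genes tested. At an unadjusted p of 0.05, mt-Nd4 and mt-Atp6 passed, where 19.6% of all genes tested did. DESeq2 called 0 of the 13 (7.3% of all genes tested), and limma's voom with quality weights called 3, all higher, where it called 19.0% of all genes tested and 9.96% as higher.

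Among the complex I genes, mt-Nd4 is a proton-pumping core subunit of the membrane arm. It ranged from 2956 CPM through a median of 3577 to 3780 CPM in HFHS livers, and from 1828 through 2561 to 3667 CPM in LFLS livers. The 4 lowest LFLS values were those of LFLS 1 to 4, all below every HFHS library, while LFLS 5 to 7 overlapped with HFHS. Its log2 fold change was 0.37 ± 0.16 (SE, n = 7 each), with an adjusted p of 0.216 in edgeR and of 0.00938 in voom. mt-Nd1 ranged from 4819 through 5153 to 5882 CPM in HFHS livers and from 1465 through 4227 to 5936 CPM in LFLS livers. A log2 fold change of 0.34 ± 0.26 was not called (edgeR adjusted p = 0.492). For mt-Nd2, mt-Nd5 and mt-Nd6, further core subunits, the log2 fold changes were 0.27 ± 0.33, 0.31 ± 0.25 and 0.37 ± 0.35, with edgeR adjusted p-values of 0.686, 0.522 and 0.591. mt-Nd3 ranged from 7.76 through 14.5 to 27.0 CPM in HFHS livers and from 0.39 through 6.45 to 22.8 CPM in LFLS livers. Again LFLS 1 to 4 were below every HFHS library and LFLS 5 to 7 were not. mt-Nd3 had a log2 fold change of 0.43 ± 0.56 (edgeR adjusted p = 0.709), and that of mt-Nd4l was 0.34 ± 0.55 (edgeR adjusted p = 0.765).

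The only mitochondrial subunit of complex III is cytochrome b, encoded by mt-Cytb. It ranged from 8389 CPM through a median of 11193 to 11370 CPM in HFHS livers, and from 3718 through 7456 to 11116 CPM in LFLS livers. The spread in LFLS livers again came with LFLS 1 to 4 at the bottom. mt-Cytb had a log2 fold change of 0.37 ± 0.21, with an adjusted p of 0.353 in edgeR and of 0.0243 in voom. In complex IV, mt-Co1 ranged from 9306 through 10939 to 11751 CPM in HFHS livers and from 3493 through 8775 to 11555 CPM in LFLS livers, a log2 fold change of 0.39 ± 0.22 with an adjusted p of 0.336 in edgeR and of 0.0356 in voom. mt-Co2 and mt-Co3, the other catalytic core subunits, had values under 10 CPM, with log2 fold changes of -0.029 ± 0.69 and 0.29 ± 0.54 (edgeR adjusted p = 0.987 and 0.806).

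In complex V, mt-Atp6 ranged from 1.42 CPM through 2.32 to 18.6 CPM in HFHS livers, and from 0.10 through 1.57 to 6.63 CPM in LFLS livers. Both diets overlapped, and HFHS 2 and HFHS 6 stood above the rest. For mt-Atp6 the log2 fold change was 1.59 ± 0.74, an adjusted p of 0.252 in edgeR. With Gm10925 added, the sum ranged from 7403 through 9136 to 12549 CPM in HFHS livers and from 2631 through 7508 to 11591 CPM in LFLS livers. The log2 fold change of the sum was 0.46 ± 0.30 (edgeR adjusted p = 0.404). Adding Gm10222 to mt-Nd4l gave 0.41 ± 0.23 (edgeR adjusted p = 0.338). mt-Atp8 had a log2 fold change of 0.29 ± 0.61 (edgeR adjusted p = 0.828).

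As a share of all counts, the 13 genes made up 4.51% ± 0.32 in HFHS libraries and 3.40% ± 1.19 in LFLS libraries (SD, n = 7 each). The HFHS shares ran from 4.08% to 4.94%. Among LFLS libraries of title number 1 the shares were 1.35%, 3.28%, 2.37% and 3.63% in LFLS 1 to 4, and among those of title number 2 they were 4.28%, 4.73% and 4.16% in LFLS 5 to 7. Only the libraries LFLS 5 to 7 overlapped with HFHS. Counting error was small beside these gaps, the Wilson 95% interval of LFLS 1 being 1.347% to 1.354%. The difference was 1.11 percentage points pooled, 1.74 within title number 1 and 0.28 within title number 2. Counting matched pseudogenes of the mitochondrial genes as well, the share was 6.26% ± 0.49 in HFHS libraries and 4.63% ± 1.66 in LFLS libraries. Being sums over members, these shares were not tested. LFLS 1 and LFLS 3, with the lowest shares, had the highest erythroid marker sums, 716.8 and 743.2 CPM, and the part of this in the shares was not tested.

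**Figure D3:**
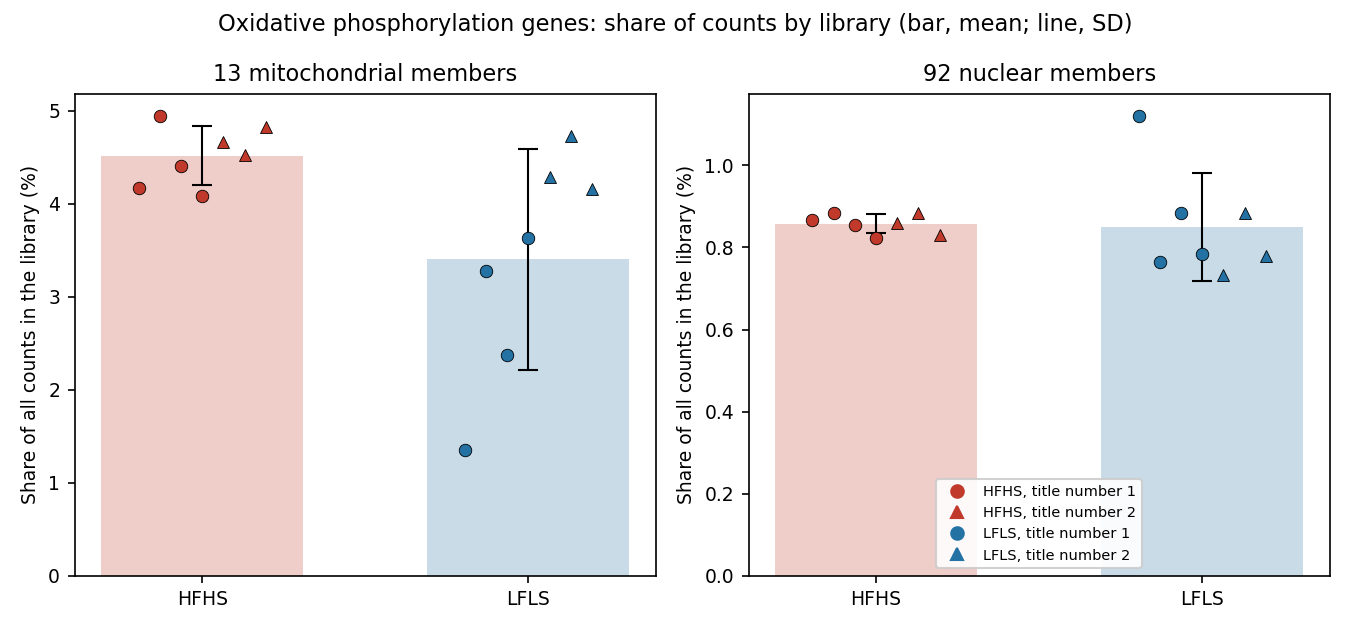
Points are libraries and give the percent of all counts in the 13 mitochondrial members (left) and in the 92 nuclear members (right), with bars for the mean and lines for the SD of 7 HFHS and 7 LFLS libraries; circles are title number 1 and triangles title number 2. The mitochondrial share spans 4.08% to 4.94% in HFHS and 1.35% to 4.73% in LFLS, and the nuclear share of LFLS 1 is 1.12%, above the other 13 libraries.

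Within title number 1, the median log2 fold change of the mitochondrial genes was 0.80 and 13 of 13 were positive. Within title number 2 it was -0.059 and 5 of 13 were positive. In the high set, values ran from 0.66 to 0.89 within title number 1 and from -0.082 to 0.094 within title number 2. In the low set they ran from 0.73 to 1.78 and from -0.90 to 1.35. In title number 1, all 4 HFHS libraries lay above all 4 LFLS libraries for 6 of the 13, where 12.4% of all genes tested had that pattern. These were mt-Nd1, mt-Co1, mt-Nd3, mt-Nd4, mt-Nd5 and mt-Cytb. HFHS lay below for 0 of the 13 there (10.5% of all genes tested). In title number 2, HFHS lay above for 1 of the 13 (13.1% of all genes tested) and below for 2 (13.3%). The genes share the same libraries and are not independent replicates. The difference between the title numbers was itself tested as a diet by title number interaction, which called 0.883% of all genes tested and 0 of the 13. All 13 interaction values were negative, with a median of -0.86 on the log2 scale, and the lowest adjusted p in edgeR was 0.144 for mt-Nd4. With GC and length offsets the median was -0.24 and the lowest adjusted p in edgeR 0.633. Without LFLS 1, the lowest library for all 13, the median log2 fold change over both title numbers was 0.18, and without LFLS 1 and LFLS 3 it was 0.15.

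Nuclear members were not called between the diets in the same fit. Of the 92, 84 passed the filter on low counts, and 0 were called by edgeR in either direction, against 2.81% of all genes tested. Their median log2 fold change was -0.018, and 40 were positive and 44 negative, while voom gave a median of 0.13. For 69 of the 84, or 82.1%, the 95% interval lay within 1.5-fold either way, where the share over all genes tested was 54.9%. At an unadjusted p of 0.05, 2 were higher and 2 lower, where 19.6% of all genes tested passed. DESeq2 called 0 nuclear members (7.3% of all genes tested), and voom called 11, all higher (9.96% of all genes tested were called higher). With the title number as a block edgeR called 1, Ndufs1 (8.94% of all genes tested), and with a block for each pair of titles 0 (3.47%). For 0 of the 84 did the diets fail to overlap in CPM, where 1.65% of all genes tested had no overlap. Together the nuclear members made up 0.858% ± 0.023 of the counts in HFHS libraries and 0.850% ± 0.133 in LFLS libraries (SD, n = 7 each).

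**Figure D4:**
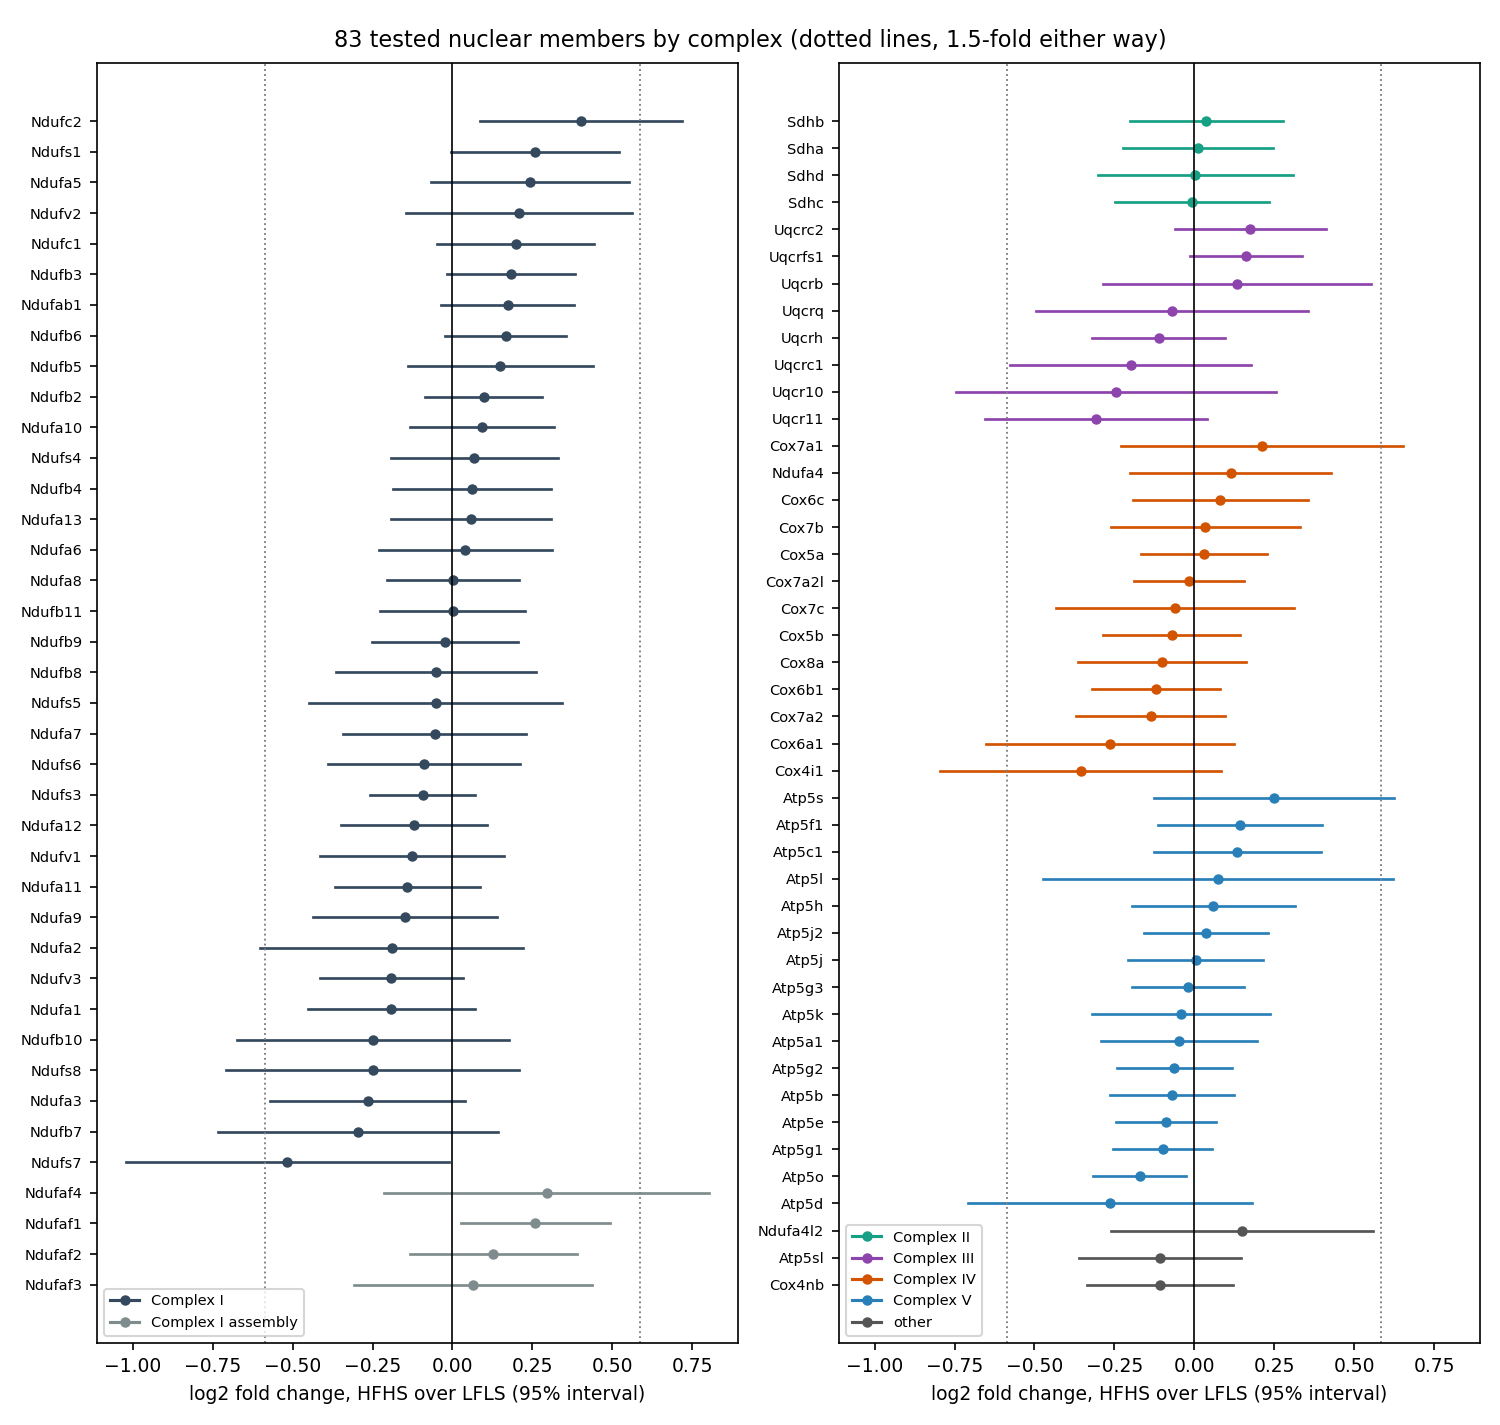
Points give the log2 fold change of HFHS over LFLS for 83 of the 84 tested nuclear members, grouped by complex and ordered by value, and lines give 95% intervals from edgeR (7 libraries per diet). Dotted lines mark 1.5-fold either way, within which 68 of the 83 intervals shown lie.

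Complex I had 36 nuclear members, with 17 positive and 19 negative values and a median log2 fold change of -0.037. Ndufc2, an accessory subunit of the membrane arm, had the smallest p of all members. It ranged from 37.0 CPM through 46.2 to 52.5 CPM in HFHS livers and from 23.7 through 31.9 to 51.9 CPM in LFLS livers. LFLS 1 to 4 were all below every HFHS library, and LFLS 5 to 7 overlapped with them. Ndufc2 had a log2 fold change of 0.40 ± 0.15 (95% interval 0.084 to 0.72), with an adjusted p of 0.152 in edgeR and of 0.00956 in voom, and without LFLS 6 the edgeR adjusted p was 0.0348. The iron-sulfur subunit Ndufs1, which takes part in passing electrons from NADH, ranged from 149.6 through 165.1 to 183.5 CPM in HFHS livers and from 108.3 through 118.3 to 181.7 CPM in LFLS livers. The log2 fold change of Ndufs1 was 0.26 ± 0.12 (edgeR adjusted p = 0.264), with an adjusted p of 0.0417 in edgeR where the title number was a block. The membrane arm subunit Ndufc1 had a log2 fold change of 0.20 ± 0.12 (edgeR adjusted p = 0.356). At the other end Ndufs7, chosen here after its values were seen, had -0.52 ± 0.24 (edgeR adjusted p = 0.243) and -0.17 without LFLS 1.

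The 4 assembly factors of complex I in the list, Ndufaf1 to Ndufaf4, had positive values with a median of 0.19, and 0 were called. Ndufaf1 ranged from 19.3 through 21.6 to 25.4 CPM in HFHS livers and from 12.7 through 19.2 to 22.0 CPM in LFLS livers. For Ndufaf1 the log2 fold change was 0.26 ± 0.11, with an adjusted p of 0.206 in edgeR and of 0.0408 in voom. Ndufaf4 had a log2 fold change of 0.29 ± 0.24 (edgeR adjusted p = 0.521).

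Complex II is also an enzyme of the TCA cycle. All 4 subunits had log2 fold changes between -0.0067 and 0.037, with all 4 intervals within 1.5-fold. Their median was 0.0074, against 0.16 in voom and 0.12 in title number 2 alone. Sdha, which carries the flavin that oxidises succinate, ranged from 485.4 CPM through 555.1 to 622.0 CPM in HFHS livers and from 460.5 through 532.0 to 718.6 CPM in LFLS livers. Its log2 fold change was 0.012 ± 0.11 (95% interval -0.22 to 0.25; edgeR adjusted p = 0.966). Sdhb, its iron-sulfur partner, had 0.037 ± 0.11 (edgeR adjusted p = 0.887).

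The 8 nuclear members of complex III had a median log2 fold change of -0.090, with 3 positive and 5 negative. Uqcrfs1, the Rieske iron-sulfur protein, ranged from 161.7 through 170.0 to 178.3 CPM in HFHS livers and from 131.3 through 148.9 to 180.1 CPM in LFLS livers. Uqcrfs1 had a log2 fold change of 0.16 ± 0.083, with an adjusted p of 0.291 in edgeR and of 0.0123 in voom. The core protein Uqcrc2 had 0.17 ± 0.11 (edgeR adjusted p = 0.400), and an adjusted p of 0.0304 in voom.

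Complex IV had 19 nuclear members, of which 13 were tested, 5 with positive and 8 with negative values. The other 6 were the isoforms Cox4i2, Cox6a2, Cox6b2, Cox7b2, Cox8b and Cox8c, several of them known from muscle, lung or testis, at no more than 10 counts in any library. Cox4i1, the ubiquitous form of subunit 4, ranged from 175.8 CPM through 186.4 to 203.5 CPM in HFHS livers and from 160.2 through 200.2 to 504.3 CPM in LFLS livers. LFLS 1 alone was at 504.3 CPM, and the other 6 LFLS libraries lay between 160.2 and 230.5 CPM. The log2 fold change was -0.36 ± 0.21 (edgeR adjusted p = 0.356) and -0.065 without LFLS 1.

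Complex V had 16 nuclear members, 7 positive and 9 negative, with a median of -0.031. Atp5b, the catalytic beta subunit, had the highest level per length of all nuclear members, 476.9 CPM per kilobase in HFHS livers and 500.6 in LFLS livers. It ranged from 835.8 through 915.3 to 992.0 CPM in HFHS livers and from 838.0 through 921.6 to 1112 CPM in LFLS livers, a log2 fold change of -0.070 ± 0.091 (edgeR adjusted p = 0.706). Atp5o, which ties the catalytic head to the peripheral stalk, ranged from 86.7 through 91.8 to 103.3 CPM in HFHS livers and from 98.2 through 104.1 to 117.9 CPM in LFLS livers. The log2 fold change of Atp5o was -0.17 ± 0.069 (edgeR adjusted p = 0.185). Atp5s, a coupling factor, had 0.25 ± 0.18 (edgeR adjusted p = 0.458).

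The remaining 5 names fit the rule without being subunits or factors of these complexes in the grouping used here: Ndufa4l2, Cox4nb, Atp5sl, Atp5l-ps1 and Atp5l2. Ndufa4l2, Cox4nb and Atp5sl were tested, with log2 fold changes between -0.11 and 0.15. Atp5l-ps1 stood at 1 or 2 counts, and Atp5l2 varied between 1 and 277 counts.

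Pooled over both title numbers, the diet differences of the nuclear members followed the GC content of their transcripts. Across the 84 genes, which are not independent replicates and share the same 14 libraries, Pearson's r between log2 fold change and GC content was -0.63, against -0.31 across all genes tested with a known GC content. The 42 members of lower GC content had a median log2 fold change of 0.077, and 29 were positive. The 42 of higher GC content had a median of -0.10, and 31 were negative. The order held in title number 1 alone, with medians of 0.22 for lower and -0.13 for higher GC content. It did not hold in title number 2 alone, where the medians were -0.038 and 0.018. Within a library, the correlation across all genes between the deviation from the mean and GC content was between -0.42 and 0.045 in HFHS libraries, between 0.21 and 0.60 in LFLS 1 to 4 and between -0.37 and -0.25 in LFLS 5 to 7. LFLS 1, at 0.60, was the highest of 14 libraries for 50 of the 84 nuclear members and the lowest for 13. Without LFLS 1 the median log2 fold change of all 84 was 0.061. The mitochondrial genes, at 31.9% to 41.1% GC, lie mostly below the nuclear members, at 39.5% to 60.4%.

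With an offset per library for GC content and length, r across the nuclear members was -0.026 and their median log2 fold change was -0.0057. The mitochondrial median was then 0.11, against 0.34 without the offsets, and 0 members of either genome were called, where 3.69% of all genes tested were. These offsets are fitted without regard to diet, so a diet difference that follows GC content and a difference between libraries in GC content cannot be told apart here.

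**Figure D5:**
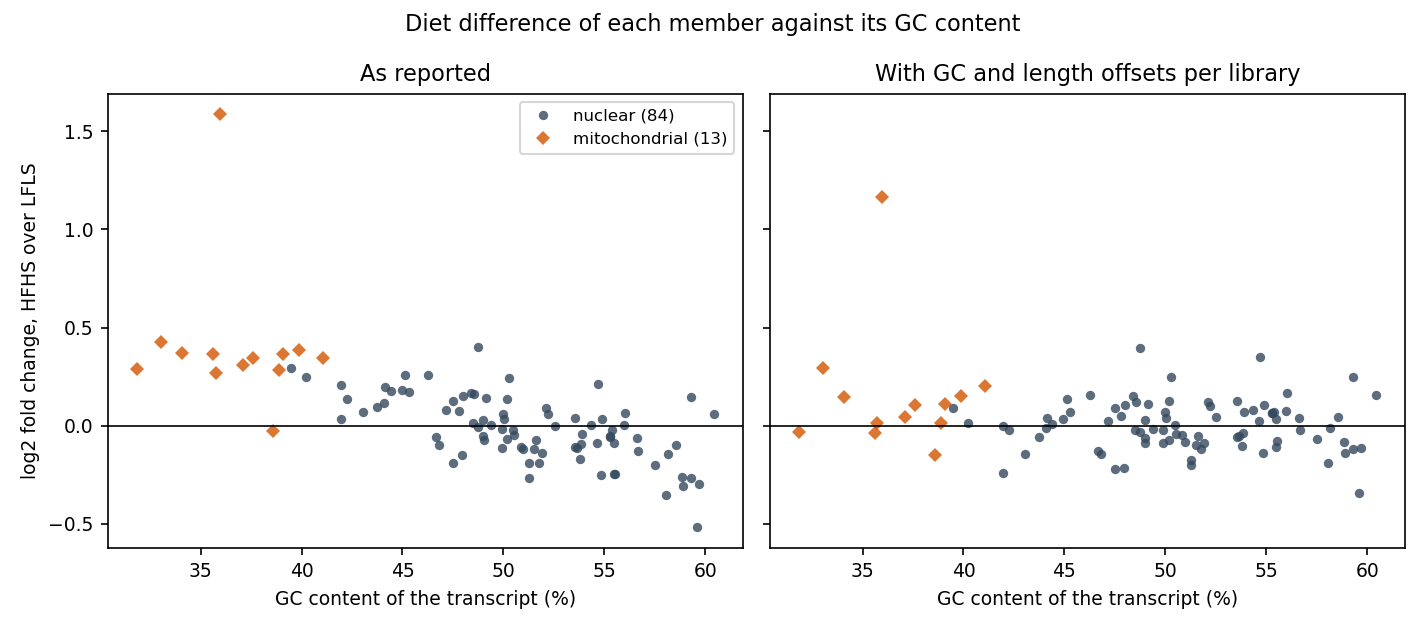
Each point is a member, with the GC content of its transcript in percent on the x axis and its log2 fold change of HFHS over LFLS on the y axis, for 84 nuclear and 13 mitochondrial members, as reported (left) and with GC and length offsets (right). Among nuclear members Pearson's r is -0.63 on the left and -0.026 on the right.

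Of all 97 tested members, the interaction called 1, Ndufv2, an iron-sulfur subunit at the NADH end of complex I. Within title number 1, it ranged from 76.7 to 99.4 CPM in HFHS livers and from 55.9 to 63.8 CPM in LFLS livers. Within title number 2 it ranged from 82.9 to 102.8 CPM in HFHS livers and from 100.4 to 112.2 CPM in LFLS livers. The log2 fold change was 0.60 in title number 1 and -0.15 in title number 2, a difference of -0.74 (title number 2 minus 1; edgeR adjusted p = 0.0418), which library totals alone as scaling did not call. With GC and length offsets the difference was -0.24 and its edgeR adjusted p was 0.449, and the interaction then called 0.0523% of all genes tested. Within title number 1 alone, edgeR called 7 nuclear members, where it called 8.49% of all genes tested in either direction. All 7 were higher in HFHS: Ndufa5, Ndufv2, Ndufs1, Ndufc1, Ndufc2, Ndufaf4 and Atp5c1. Their log2 fold changes there ran from 0.38 to 0.80, and in title number 2 from -0.15 to 0.077. The 7 were picked by their calls in title number 1, so larger values there come in part from the choice. The contrast is no test of a difference.

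Over both title numbers together, values varied more between LFLS livers. The SD of log2 CPM was larger in LFLS than in HFHS for 78 of 84 nuclear and 13 of 13 mitochondrial members, and for 79.3% of all genes tested. The median SD of the mitochondrial members was 0.25 in HFHS livers and 1.17 in LFLS livers, and that of the nuclear members was 0.14 in HFHS livers and 0.28 in LFLS livers. The mean log2 CPM of the mitochondrial members per library had an SD of 0.35 in HFHS and 1.20 in LFLS within title number 1. Within title number 2 it was 0.33 and 0.34. For the nuclear members these SDs were 0.079 and 0.23 within title number 1 and 0.066 and 0.12 within title number 2.

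Promoter windows from 250 bases before to 50 after the annotated start (RefSeq, GRCm38.p6) were found for 71 of the 92 nuclear members. The letters GCGC and TGCGC with any base between them, bound by nuclear respiratory factor 1, a known activator of respiratory chain genes, stood on either strand in windows of 18 of the 71, or 25.4%, against 5.19% of all 27025 genes with a window. The ETS letters CCGGAAG stood in 17 of the 71, or 23.9%, against 9.93%, and TCAAGGTCA, bound by estrogen-related receptors, in 2, against 0.466%. A match is a description and not a site. The window of Sdha, with 3 matches, and that of Ndufaf4, with 1, are printed to show where the letters lie, with the matches in capitals, at chr13:74350191-74350490 on the minus strand and chr4:24897833-24898132 on the plus strand.
Sdha: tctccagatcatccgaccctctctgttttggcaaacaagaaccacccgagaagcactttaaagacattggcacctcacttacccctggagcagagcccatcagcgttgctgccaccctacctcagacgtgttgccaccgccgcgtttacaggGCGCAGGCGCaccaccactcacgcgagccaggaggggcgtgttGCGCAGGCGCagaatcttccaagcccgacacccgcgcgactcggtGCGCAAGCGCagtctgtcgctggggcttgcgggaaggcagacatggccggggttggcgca
Ndufaf4: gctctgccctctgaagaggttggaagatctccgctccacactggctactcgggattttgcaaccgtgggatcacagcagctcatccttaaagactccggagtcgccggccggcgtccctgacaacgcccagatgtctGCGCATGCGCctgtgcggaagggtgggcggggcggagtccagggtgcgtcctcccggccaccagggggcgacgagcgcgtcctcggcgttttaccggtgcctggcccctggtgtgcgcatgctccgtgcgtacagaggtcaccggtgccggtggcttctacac
The 18 members with these letters had a median log2 fold change of -0.0087, and the 50 tested members with a window and without them had -0.034.

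Genes that serve the pathway were read from the same fit. Of 16 regulators of mitochondrial biogenesis, 2 were called higher and 1 lower, where 1.37% of all genes tested were called higher and 1.44% lower, and their median log2 fold change was -0.027. Nfe2l2, the transcription factor of the oxidative stress response, rose in HFHS livers, with 85.5 CPM through 103.0 to 124.9 CPM in HFHS livers and 60.3 through 78.0 to 82.6 CPM in LFLS livers, and no overlap between the diets. The log2 fold change was 0.45 ± 0.097 (edgeR adjusted p = 0.0256), with an adjusted p of 0.0826 with GC and length offsets and of up to 0.0640 without HFHS 1, HFHS 2 or LFLS 2. Esrrg, a nuclear receptor that activates oxidative genes in muscle, had 6.71 CPM through 11.8 to 12.9 CPM in HFHS livers and 3.27 through 5.01 to 10.3 CPM in LFLS livers, and rose with a log2 fold change of 1.00 ± 0.22 (edgeR adjusted p = 0.0290). Pprc1, a coactivator related to PGC-1, fell by 0.56 on the log2 scale (edgeR adjusted p = 0.0395). Leaving out single libraries ended the call of Esrrg in 8 of 14 cases (HFHS 2, 5, 6 and 7 and LFLS 2, 4, 5 and 7; adjusted p up to 0.0711) and that of Pprc1 in 11 of 14 (all but LFLS 1, 6 and 7; adjusted p up to 0.0884), with the direction kept in every case. Of 13 genes of mitochondrial DNA and transcription, 1 was called (2.81% of all genes tested), Mterfd3, of the mitochondrial termination factor family. It had 4.89 CPM through 5.33 to 6.47 CPM in HFHS livers and 1.86 through 3.48 to 3.96 CPM in LFLS livers, again without overlap, and its log2 fold change was 0.84 ± 0.17 (edgeR adjusted p = 0.0206), or an adjusted p of 0.0591 without HFHS 2.

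The other lists had 0 calls in edgeR, among them 18 TCA cycle genes, 73 genes of the mitochondrial ribosome, 16 electron carriers and side entries, 12 genes of mitochondrial RNA handling, 7 of uncoupling and adenine nucleotide exchange and the assembly factors of all 5 complexes. At an unadjusted p of 0.05, 5 of the ribosome genes, 4 of the TCA cycle genes, 4 of the complex I assembly factors and 1 each of the carriers and the RNA handling genes passed, where 19.6% of all genes tested did. DESeq2 called 1 ribosome gene and 1 TCA cycle gene (7.3% of all genes tested), and voom called 12 and 5, all higher (9.96% of all genes tested were called higher). With the title number as a block, edgeR called 8.94% of all genes tested, among them 3 of the 7 complex I assembly factors, 2 of the 18 TCA cycle genes and 2 of the 73 ribosome genes. In the edgeR fit without a block, the lowest adjusted p of these lists was 0.0531, for the complex I assembly factor Lyrm2. Lyrm2 had 5.596 CPM through 5.90 to 6.56 CPM in HFHS livers and 2.80 through 4.37 to 5.45 CPM in LFLS livers, without overlap. Its log2 fold change was 0.49 ± 0.13 in edgeR. Its edgeR adjusted p was 0.0155 with the title number as a block and 0.0252 with GC and length offsets. Fh1, the fumarase of the TCA cycle, had -0.70 ± 0.24 (edgeR adjusted p = 0.117). With negative values, edgeR called it with the title number as a block (-0.62, adjusted p = 0.0260) and in title number 2 alone (-0.99, adjusted p = 0.0373). It was also called without LFLS 1 and LFLS 3, a fit chosen after seeing the data (adjusted p = 0.0196), and with offsets and block (adjusted p = 0.0168). Not called were title number 1 alone (-0.33, adjusted p = 0.258), the title pairs block (adjusted p = 0.0808) and offsets without a block (adjusted p = 0.0705). DESeq2 (adjusted p = 0.0530) and voom (adjusted p = 0.0622) did not call it either. Suclg2, a succinyl-CoA ligase subunit, had 0.34 ± 0.096 (edgeR adjusted p = 0.0681, or 0.0356 with the title number as a block). With GC and length offsets it had 0.17 and was not called (edgeR adjusted p = 0.439). The mitochondrial ribosome genes had a median log2 fold change of 0.027, with 45 of 73 positive. Mrpl41, a subunit of its large part, had 0.47 ± 0.13 (edgeR adjusted p = 0.0683, or 0.0325 with the title number as a block), and Mrpl11 had 0.23 ± 0.083 (edgeR adjusted p = 0.142, or 0.0471 with the block). With GC and length offsets Mrpl41 had 0.51 and Mrpl11 had 0.21, both not called (edgeR adjusted p = 0.0618 and 0.165). With offsets and block Mrpl41 was called (edgeR adjusted p = 0.0335) and Mrpl11 was not (edgeR adjusted p = 0.0816).

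In the lists of assembly factors, 5 of 7 complex I genes were positive, with a median log2 fold change of 0.20, and after Lyrm2 the smallest p was that of Tmem126b, at 0.32 ± 0.097 (edgeR adjusted p = 0.0884, or 0.0409 with the title number as a block). With GC and length offsets Tmem126b had 0.16 and was not called (edgeR adjusted p = 0.252). DESeq2 called 2 of these 7 (7.3% of all genes tested) and voom 4, all higher (9.96% called higher). The 12 complex IV factors had a median of 0.075, and Cox19 and Cox16 had the smallest p-values, with log2 fold changes of 0.20 ± 0.12 and 0.23 ± 0.13 (edgeR adjusted p = 0.347 for both). Voom called 1 of the 12, Cox16 (adjusted p = 0.0134). For complex III, Lyrm7, which helps to insert the Rieske protein, had 0.36 ± 0.17 (edgeR adjusted p = 0.267), and Uqcc had -0.038 ± 0.091 (edgeR adjusted p = 0.852). Sdhaf2 and Sdhaf1, the factors of complex II, had 0.083 ± 0.090 and 0.041 ± 0.086 (edgeR adjusted p = 0.640 and 0.827). For complex V, Tmem70 and Atpaf1 had 0.17 ± 0.10 and 0.18 ± 0.11 (edgeR adjusted p = 0.377 and 0.396). Usmg5, a small subunit of complex V, and Cycs, cytochrome c, from the list of other structural subunits, had 0.24 ± 0.17 and 0.37 ± 0.26 (edgeR adjusted p = 0.451 and 0.459). Voom called Usmg5 (adjusted p = 0.0331) and not Cycs (adjusted p = 0.122).

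In the remaining lists, the genes with the smallest p-values were these. Coq2, an enzyme of ubiquinone synthesis, had a log2 fold change of 0.21 ± 0.088 (edgeR adjusted p = 0.202), and Sqrdl, which passes electrons from sulfide to ubiquinone, had 0.19 ± 0.10 (edgeR adjusted p = 0.320). Voom called both (adjusted p = 0.00757 and 0.0235), among 5 of the 16 carriers and side entries, all higher (9.96% of all genes tested were called higher). EdgeR called Coq2 without LFLS 1 (adjusted p = 0.0324) and with offsets and block (adjusted p = 0.0233), not with offsets alone (adjusted p = 0.0615). Among carriers, Slc25a3, which brings phosphate into mitochondria, had -0.13 ± 0.081 (edgeR adjusted p = 0.373), and Ucp2, a member of the uncoupling protein family, had 0.32 ± 0.26 (edgeR adjusted p = 0.519). In RNA handling, Fastkd2 had 0.32 ± 0.14 (edgeR adjusted p = 0.214), and Hsd17b10, a part of mitochondrial RNase P, had 0.21 ± 0.14 (edgeR adjusted p = 0.413). Voom called both (adjusted p = 0.0343 and 0.0242), among 3 of the 12 RNA handling genes, all higher.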

How the data were processed

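Per the labels' protocols, liver RNA was extracted with Tri Reagent, treated with DNase, enriched for poly(A) RNA, made into TruSeq libraries and sequenced as single reads of 50 bases on a HiSeq2000. The submitters' processing notes list TopHat, Bowtie, DESeq and CASAVA 1.8, and build mm9; no source names the counting tool, the annotation or the treatment of reads that match several places. The deposited values are whole-number counts per Ensembl gene, with no count below 1. The authors' deposited results table also holds normalized signal means, a ratio (fold change), its log2 and p-values, per the file headers. Its groups are not named by diet, so it was used for gene names alone, and 2 columns of group means were not used.

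Counts were joined by Ensembl ID and tested with edgeR 4.0.16 in R 4.3.3 (TMM scaling, filterByExpr by diet, quasi-likelihood F test, Benjamini-Hochberg adjustment over 17223 genes, called under 0.05, no block). DESeq2 1.42.0 and limma 3.58.1 (voom with quality weights) were alternatives. A value ± SE is a log2 fold change with its standard error. For edgeR that error was derived from the test, as the absolute log2 fold change over the square root of F. The 95% intervals are the log2 fold change plus or minus that error times a t quantile. Wilson intervals cover counting error only. Scripts were tested on simulated data. There the fit called 22% and 22.9% of genes given log2 changes of 0.585 and -0.585. It called 68% and 68.1% of those given 1 and -1, so a member with a difference of such a size can go uncalled. GC content, length, chromosomes and copies came from GENCODE M21 transcripts (GRCm38), not from mm9. Genes were matched by Ensembl ID, apart from Gm10925, matched by symbol. Whether libraries of the same title number and letter deviate together from their diet means was checked over the tested genes. The correlation ran from -0.069 to 0.41 and was above 0.1 in 4 of 7 pairs. Between HFHS and LFLS libraries it averaged 0.13 where the title number was shared and -0.13 where it was not. The check does not decide whether titles pair mice. The main fit has no block for title number or pair. Named genes were all mitochondrial members, members called, the member with the smallest p and the most abundant per complex, members whose call changes with the title number block, up to 4 with the smallest interaction p, and per list the genes called or the 2 with the smallest p. Members named for their pseudogene share or for calls in voom or in title number 1 alone, and Ndufs7, were chosen after their values were seen. The values of 1 nuclear member that the rule names are not reported here. Members and lists were chosen with earlier results of these data known. Alternatives also covered scaling, filters, the title number, GC and length offsets, and each library left out. Chosen after seeing the data were 1 subtracted from every count, members summed with their pseudogenes, the fit without LFLS 1 and LFLS 3, and the interaction with offsets.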

Additional observations from a re-analysis of the deposited data

Results flagged for a closer look

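In HFHS 3, the levels of 3 mitochondrial genes of the low set stood far above those of the other 6 HFHS libraries. mt-Atp8 was at 5.93 CPM, with the others between 1.15 and 2.13 CPM. mt-Co3 was at 6.42 CPM, with the others between 1.28 and 2.22 CPM. mt-Nd4l was at 6.29 CPM, with the others between 1.203 and 2.45 CPM. Without HFHS 3 the log2 fold changes of these 3 genes were -0.11, -0.22 and -0.15. In LFLS 1, the nuclear members took 1.12% of the counts, with the other LFLS libraries between 0.733% and 0.884%. Cox4i1 in LFLS 1 was at 504.3 CPM, with the others between 160.2 and 230.5 CPM. In all, 58 groups of 7 values were checked and 5 stood out in this way, where chance flags about 1 in 20.

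The diet difference of Ndufv2 differed between the title numbers by -0.74 on the log2 scale, by the interaction test in edgeR with an adjusted p of 0.0418.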

How the results depend on the processing

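The counts of nuclear and mitochondrial members called stayed at 0 in both directions under DESeq2, RLE size factors, library totals, scaling without mitochondrial genes, both filters, the block by title pairs and GC and length offsets. With voom they were 11 nuclear and 3 mitochondrial, higher; with the replicate block by title number 1 nuclear, Ndufs1 (log2 fold change 0.28, adjusted p = 0.0417; 8.94% of all genes tested were called); with title number 1 alone 7 nuclear; and without single libraries 0 to 1 nuclear, Ndufc2 without LFLS 6. Over all genes, 484 were called, against 1258 by DESeq2, 3274 by voom, 173 without a filter, 1540 with the title number block, 1484 in title number 1 alone, 269 in title number 2 alone, 1204 with offsets and block, and 133 (without HFHS 2) to 853 (without LFLS 6) without single libraries, more than 1.5 times off without HFHS 1, 2, 5, 6 or 7 or LFLS 2, 3, 4, 6 or 7. The interaction called 46 genes and 0 members with library totals alone, and 9 genes and 0 members with offsets.

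Several log2 fold changes of members not called in the main fit changed sign, and the values with a changed sign were not called. Some of these members were called in other settings, among them Ndufv2, Ndufc1, Ndufc2 and Ndufaf4 in title number 1 alone and mt-Nd4 in voom. mt-Co2 was 0.047 with library totals, 0.024 with the block, 0.73 in title number 1 alone, 0.16 with its pseudogene and -0.39 to 0.30 without single libraries. Sdha was -0.023 without a filter and with offsets, -0.084 in title number 1 alone, -0.027 with offsets and block and -0.027 to 0.088 without single libraries; Sdhb was -0.011 to 0.12. In title number 2 alone the values were -0.059 for mt-Nd1, -0.076 for mt-Nd2, -0.66 for mt-Atp8, -0.57 for mt-Co3, -0.082 for mt-Nd5, -0.029 for mt-Nd6, -0.72 for mt-Nd4l, -0.15 for Ndufv2, 0.061 for Atp5b, -0.12 for Ndufaf4, -0.025 for Ndufc2, 0.085 for Cox4i1, -0.060 for Ndufc1 and -0.19 for Atp5s. With offsets mt-Atp8 was -0.033 and mt-Nd4 -0.038; with offsets and block mt-Atp8 was -0.12, mt-Co3 -0.071 and mt-Nd4 -0.031. Without LFLS 1 and LFLS 3, mt-Nd2 was -0.062. Without single libraries mt-Atp8 ran from -0.11 to 0.76, mt-Co3 from -0.22 to 0.62 and mt-Nd4l from -0.15 to 0.69. The causes were not tested. The mitochondrial share differed by 0.77 (without LFLS 1) to 1.33 percentage points.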
